A study of Mus musculus with 12 samples.

Results

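The sirtuin and PGC-1 transcripts of the left ventricle were compared between hearts with and without pressure overload and with and without hispidulin, a plant flavone. The set held 10 genes, found in the deposited expression matrix by NCBI Gene ID among 18079 genes: the deacetylases Sirt1 and Sirt3, the coactivators Ppargc1a and Ppargc1b, the nuclear receptors Ppara, Rxra, Esrra and Esrrg, and the mitochondrial biogenesis factors Nrf1 and Tfam. All 10 were present and all 10 passed the filter on low values, since each had an FPKM, the fragment count scaled to transcript length and library size, above 1 in every heart. The rule that selects the members uses their names and no measured value. The members were, however, chosen with earlier results of these data known.

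C57BL/6 mice, given as male C57BL/6J in the study's methods and without any transgene, had descending aortic banding (AB) or a Sham operation at 8 weeks of age, and left ventricular muscle was taken 4 weeks later, at 12 weeks. There were 4 groups of 3 mice, with 1 poly(A) RNA library per mouse: Sham mice given the solvent (DMSO+Sham), Sham mice given the drug (Hispidulin+Sham), banded mice given the solvent (DMSO+AB) and banded mice given the drug (Hispidulin+AB). Hispidulin was injected intraperitoneally at 20 mg/kg/day, and the DMSO groups received the solvent, in both cases starting on the day before the operation. Whole muscle was sequenced, so cell types were not separated, and 1 dose and 1 time point were measured.

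PGC-1 alpha (Ppargc1a) and PGC-1 beta (Ppargc1b) bind no DNA themselves but raise transcription by docking on nuclear receptors, chiefly the estrogen-related receptors (Esrra, Esrrg) and PPAR alpha (Ppara), which pairs with the retinoid X receptor alpha (Rxra), and on NRF1 (Nrf1). Sirt1 removes acetyl groups from PGC-1 alpha in a reaction that consumes NAD, and Sirt3 deacetylates enzymes inside the mitochondrion. NRF1 drives nuclear genes of the respiratory chain as well as Tfam, which packages and transcribes mitochondrial DNA. The adult heart depends on this network for fatty acid oxidation and for its high mitochondrial content.

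Some libraries stood apart. The atrial myosin light chain Myl7 read 42.26 FPKM in Hispidulin+AB 3, 67.54 in DMSO+AB 2 and 333.05 in Hispidulin+Sham 3, against 0.24 to 15.03 in the other 9 libraries, and Myl4 and Sln were high in the same 3. DMSO+Sham 3 had 2740.68 FPKM of cardiac actin Actc1 against 7908.75 to 11562.22 elsewhere, and it was the lowest of the 12 libraries for Sirt3, Ppargc1a, Ppargc1b and Esrra. The same library had the highest macrophage and leukocyte transcripts Adgre1 (11.08 FPKM against 2.71 to 5.65) and Ptprc (3.79 against 0.51 to 2.23). Hispidulin+Sham 3 had the most haemoglobin RNA, with Hba-a1 at 3844.56 FPKM against 874.91 to 1950.64. DMSO+AB 1 differed from the other DMSO+AB hearts in Nppa, a natriuretic peptide gene (680.18 FPKM against 6042.98 and 5738.26), and in Postn, a matrix gene of activated fibroblasts (23.44 against 183.62 and 50.92), and it was the highest of the 12 libraries for Ppargc1a. Cardiomyocyte markers were present at a summed 29517 to 44888 FPKM, whereas the skeletal muscle and adipocyte markers summed to at most 1.01 FPKM. The 4 overload genes (Nppa, Nppb, Myh7, Acta1) summed to 452 to 1566 FPKM in Sham hearts and 3818 to 16341 in AB hearts, without overlap. Summed FPKM ran from 535235 to 567027 per library. Read depth could not be recovered from the rounded values. The animal numbers in the labels fell into 2 series of 6 and 5 mice, with 1 mouse outside both, and what the series mark is not given.

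The regions before the start sites of the members that lead the results below are shown first, to place the regulators beside the regulatory letters that their own promoters carry. Each is the 250 bases upstream of a RefSeq start in GRCm38.p6, 5′ to 3′ on the gene's strand, with matches in capitals, counted on both strands. The motifs searched were the NRF1 core GCGCATGCG, the E-box CACGTG, the GC box GGGCGG, the GABP site CCGGAAG, the estrogen-related receptor element TCAAGGTCA, the nuclear receptor core AGGTCA and the cyclic AMP response element TGACGTCA. AGGTCA also lies within TCAAGGTCA, and the other motifs do not contain each other. Rxra has 2 listed starts, chr2:27676951-27677200 and chr2:27709042-27709291, both on the + strand:
Rxra, first start: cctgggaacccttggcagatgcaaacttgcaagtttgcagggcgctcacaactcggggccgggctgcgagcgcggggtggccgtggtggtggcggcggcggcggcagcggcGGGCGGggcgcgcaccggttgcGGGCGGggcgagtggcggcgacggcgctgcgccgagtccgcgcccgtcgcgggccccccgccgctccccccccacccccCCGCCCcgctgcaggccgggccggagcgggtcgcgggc
Rxra, second start: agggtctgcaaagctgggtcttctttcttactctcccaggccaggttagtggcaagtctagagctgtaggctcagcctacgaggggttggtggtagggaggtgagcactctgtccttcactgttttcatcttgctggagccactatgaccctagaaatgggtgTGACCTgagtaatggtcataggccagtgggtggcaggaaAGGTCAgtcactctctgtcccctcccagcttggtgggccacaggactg
The first window is GC-rich (81.2%) with 3 GC boxes, and the second (55.2% GC) holds 2 nuclear receptor cores in opposite orientation, 1 as AGGTCA and 1 as its reverse complement. Of 32851 RefSeq windows of this length in the mouse, 32.7% held a GC box and 14.0% a nuclear receptor core, so neither match is rare.

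Ppara lies on the + strand at chr15:85735526-85735775 and Sirt1 on the - strand at chr10:63339036-63339285:
Ppara: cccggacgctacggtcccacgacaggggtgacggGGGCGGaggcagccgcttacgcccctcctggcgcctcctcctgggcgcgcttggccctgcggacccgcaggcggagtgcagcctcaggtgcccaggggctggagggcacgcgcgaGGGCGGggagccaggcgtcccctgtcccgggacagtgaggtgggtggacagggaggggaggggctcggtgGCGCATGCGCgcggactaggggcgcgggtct
Sirt1: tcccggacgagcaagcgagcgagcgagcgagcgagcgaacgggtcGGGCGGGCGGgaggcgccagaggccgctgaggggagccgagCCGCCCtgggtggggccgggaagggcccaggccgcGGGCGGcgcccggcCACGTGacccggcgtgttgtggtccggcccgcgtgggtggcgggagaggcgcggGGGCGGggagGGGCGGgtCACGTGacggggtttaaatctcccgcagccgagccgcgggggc
The Ppara window carries the palindromic NRF1 core 22 to 31 bases before the start, read on both strands, beside 2 GC boxes; 1.45% of all windows held this core. The Sirt1 window holds 2 E-boxes, 38 to 43 and 110 to 115 bases before the start, a motif found in 6.02% of windows, and 6 GC boxes, a pair of which overlap. Windows were found for 9 of the 10 members (15 windows in all). Among the others, GABP sites were found before Tfam and before 1 start of Sirt3 (6.91% of all windows), and GC boxes before Esrra, Esrrg, Nrf1, Sirt3 and Tfam. The single Ppargc1a window, at 48.0% GC, held none of the 7 motifs. A match describes letters only, and binding was not measured.

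In the order of their mean level over 12 hearts, Esrra was the most abundant member at 79.6 FPKM, followed by Sirt3 at 28.5, Ppargc1a at 21.3, Rxra at 19.5, Tfam at 18.6, Ppara at 12.7, Esrrg at 7.56, Sirt1 at 4.86, Nrf1 at 4.80 and Ppargc1b at 4.17 FPKM. FPKM is already divided by transcript length, so these levels can be set side by side. Only 2 steps of this order separated every heart by range, that from Esrra to Sirt3 and that from Ppara to Esrrg. The neighbours Sirt1 and Nrf1 exchanged places from heart to heart, Sirt1 being higher in 6 of 12, and the same held for Rxra and Tfam. Sirt1 thus stood in the lower part of the transcripts tested, at the 33.6th percentile, whereas Esrra stood at the 92.2nd. Of the coactivators, Ppargc1a was the main form in this muscle, and Perm1, a muscle coactivator outside the set that acts with PGC-1, was higher still, with group means of 81.4 to 92.0 FPKM.

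**Figure D1:**
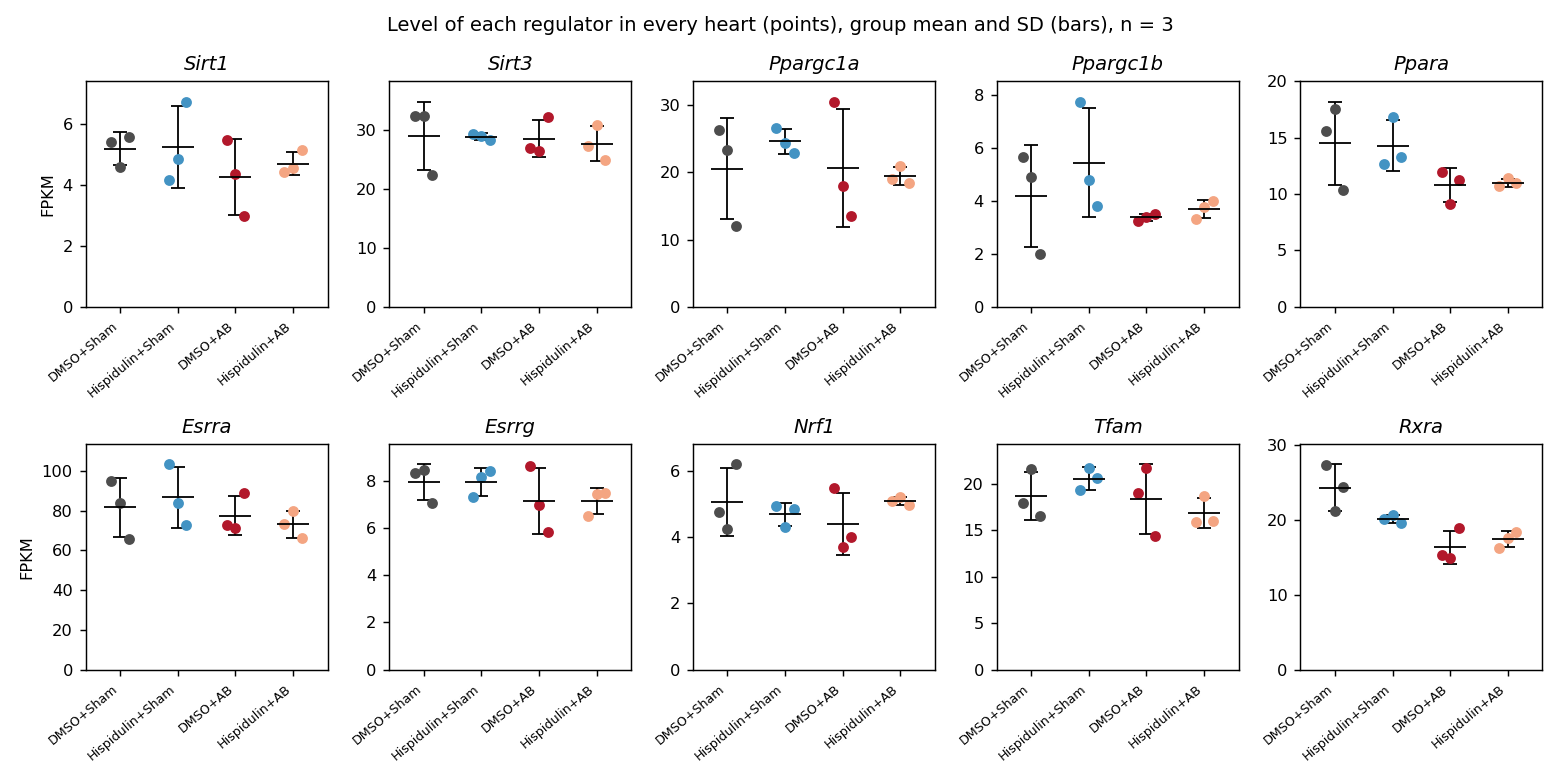
FPKM of the 10 regulators in every heart (points), with the mean and SD of each group of 3 mice (bars), on axes that start at 0. Rxra in the 6 AB hearts (14.85 to 18.87 FPKM) lies below all 6 Sham hearts (19.54 to 27.36 FPKM), while the groups overlap for Sirt1, Sirt3 and Ppargc1b.

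The first question was how banding changed these transcripts in the absence of the drug. Rxra fell after AB, and it was the only member of the 10 to pass the test. It read 27.36, 21.13 and 24.38 FPKM in the DMSO+Sham hearts and 15.23, 14.85 and 18.87 FPKM in the DMSO+AB hearts, so the groups did not overlap. The group means were 24.3 ± 3.12 and 16.3 ± 2.22 FPKM (SD, n = 3), a difference of -0.55 on the log2(FPKM + 1) scale (SE 0.12, adjusted p = 0.0247, limma with Benjamini-Hochberg adjustment over 11664 genes). In this comparison 5.21% of all genes tested were called at adjusted p under 0.05 and 2.71% were called lower, so 1 of 10 members is read against that background; 10.8% of all genes were lower without overlap. An exact permutation test of 3 hearts against 3 gave p = 0.1, the smallest it can give. In bulk muscle, fewer cells of a type and less RNA per cell cannot be told apart.

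Rxra was also lower with the drug groups included, a comparison that shares the DMSO hearts with the first and is no independent check. In the average of both drug arms, which sets 6 hearts against 6, Rxra was 22.2 ± 3.06 FPKM in Sham and 16.8 ± 1.66 FPKM in AB hearts (SD, n = 6), a log2 difference of -0.37 (SE 0.08, limma adjusted p = 0.0211). All 6 AB hearts were below all 6 Sham hearts, as were 2.8% of the genes tested; 7.39% of genes were called in this comparison and 3.87% called lower. The exact permutation test within drug arms gave p = 0.005, the smallest possible with 400 arrangements. The 3 Hispidulin+Sham hearts, at 20.04, 20.63 and 19.54 FPKM, lay below the DMSO+Sham hearts, as did 2.83% of all genes, a difference of -0.26 that was not called (unadjusted p = 0.0505, limma adjusted p = 1.000). Within the drug arm, AB hearts read 16.22, 17.58 and 18.32 FPKM, a difference of -0.20 from Hispidulin+Sham (adjusted p = 0.784).

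The call of Rxra rested on several choices. It was lost when the model held only the 6 DMSO libraries (adjusted p = 0.211, limma), without the 3 libraries that carried atrial transcripts (log2 difference -0.49, adjusted p = 0.206 between the DMSO groups; -0.37, adjusted p = 0.170 in the average), and with the animal series as a covariate (-0.45, adjusted p = 0.0952; -0.31, adjusted p = 0.0702). It was kept without DMSO+Sham 3 (adjusted p = 0.0468 and 0.0271), and between the DMSO groups it was lost without DMSO+Sham 1 (adjusted p = 0.10) or DMSO+AB 2 (adjusted p = 0.0986). In the averaged comparison it was lost without DMSO+Sham 1, DMSO+AB 2, Hispidulin+Sham 1, Hispidulin+Sham 2 or Hispidulin+AB 1, each left out alone, at adjusted p = 0.0527 to 0.0620. Within the series of 6 mice the averaged difference was -0.43, and within the series of 5 it was -0.15. Its direction was the same under all 17 alternatives for the DMSO groups and all 22 for the average, with differences from -0.71 to -0.45 and from -0.47 to -0.31.

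Ppara, the partner of Rxra on fatty acid oxidation genes, came next. It read 15.61, 17.53 and 10.38 FPKM in DMSO+Sham hearts, 12.71, 16.88 and 13.28 in Hispidulin+Sham, and after banding 11.99, 9.10 and 11.26 FPKM with DMSO and 10.69, 11.40 and 10.99 FPKM with hispidulin. DMSO+Sham 3 was the only Sham heart within the range of the AB hearts. The difference was -0.37 between the DMSO groups (SE 0.17, limma adjusted p = 0.254) and -0.36 in the average over drugs (95% interval -0.62 to -0.09, unadjusted p = 0.0139, adjusted p = 0.104), and the exact permutation test of the average gave p = 0.02. Without DMSO+Sham 3 the difference became -0.58 and was called (limma adjusted p = 0.0459), as was that of the average (-0.46, adjusted p = 0.0148). Leaving out each library in turn gave -0.58 to -0.23 between the DMSO groups and -0.46 to -0.28 in the average. Within the animal series the averaged differences were -0.12 and -0.49.

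**Figure D2:**
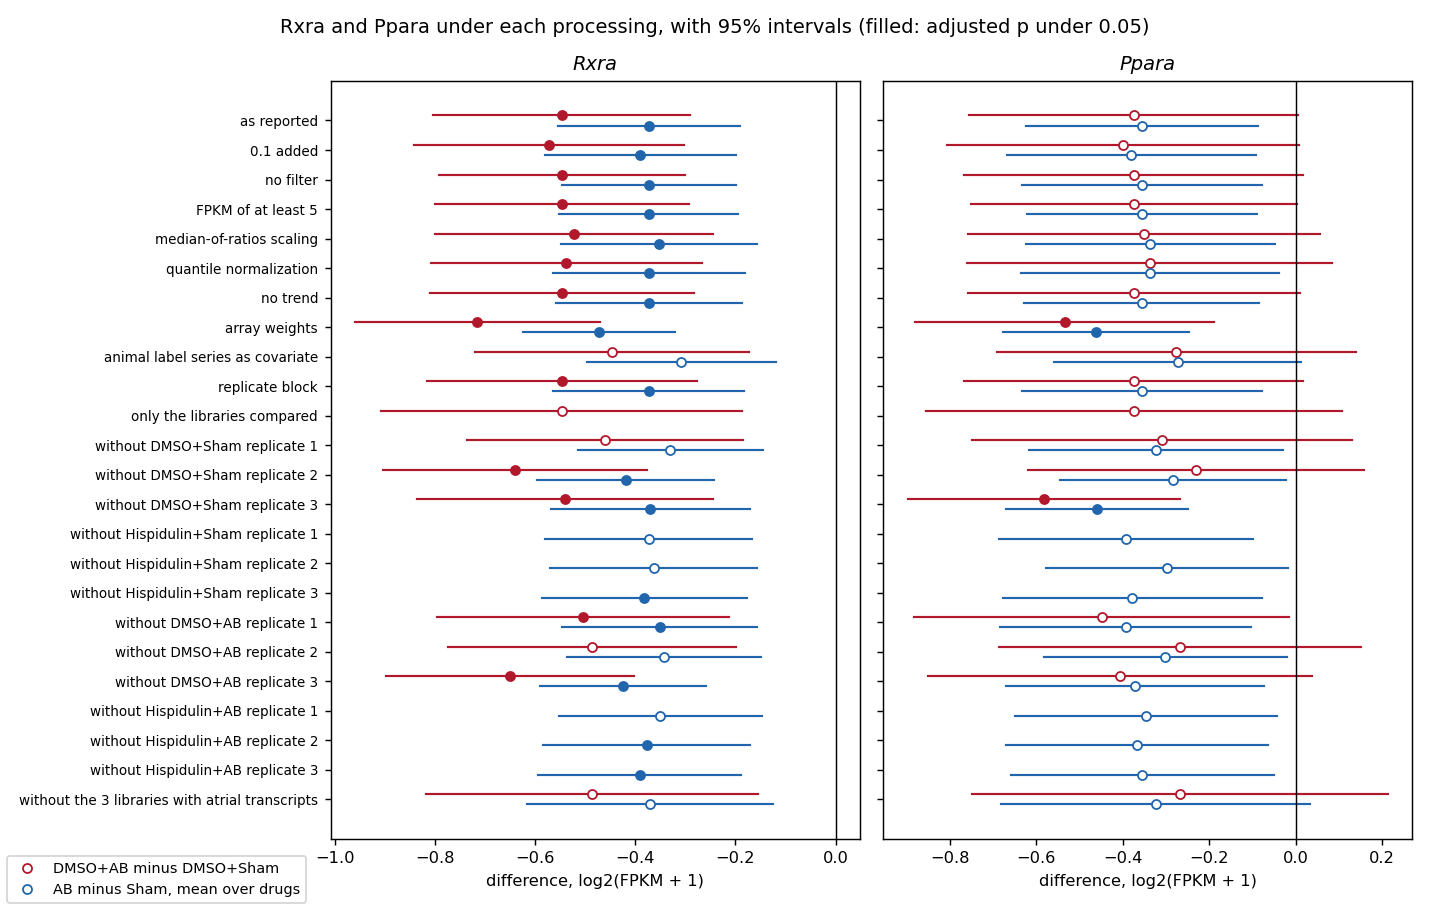
Difference in log2(FPKM + 1) of Rxra and Ppara between DMSO+AB and DMSO+Sham (red) and between AB and Sham averaged over drugs (blue), with 95% intervals, under each processing. Filled points have an adjusted p under 0.05. Every Rxra point is negative, from -0.71 to -0.31, while its call comes and goes, and Ppara is filled only with array weights and without DMSO+Sham 3.

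The sirtuins did not pass the test after banding. Sirt1 read 5.41, 4.58 and 5.59 FPKM in DMSO+Sham and 5.47, 4.36 and 2.99 FPKM in DMSO+AB hearts, where the lowest single value of all 12 hearts lay in DMSO+AB 3. The log2 difference was -0.26 (95% interval -0.66 to 0.15, adjusted p = 0.472, limma). It was -0.07 without DMSO+AB 3 and -0.42 without DMSO+AB 1, and in the average over drugs it was -0.18 (-0.47 to 0.10, adjusted p = 0.439). Sirt3, the main mitochondrial deacetylase, averaged 29.0 ± 5.79 FPKM in DMSO+Sham and 28.6 ± 3.22 FPKM in DMSO+AB hearts (SD, n = 3), with a difference of -0.01 (-0.32 to 0.30). None of the other 5 sirtuins (Sirt2, Sirt4, Sirt5, Sirt6, Sirt7) was called in any of the 7 comparisons.

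The PGC-1 coactivators varied more between hearts than between groups. Ppargc1a read 26.25, 23.29 and 12.04 FPKM in DMSO+Sham, 26.57, 24.33 and 22.96 in Hispidulin+Sham, and after banding 30.54, 17.98 and 13.55 FPKM with DMSO and 19.04, 21.01 and 18.47 FPKM with hispidulin. The spread was wide within both DMSO groups and narrow within both hispidulin groups, and this was not particular to Ppargc1a. Over all genes tested, the root mean square deviation from the group mean was 0.20 to 0.32 log2 units in the DMSO libraries. In the hispidulin libraries it was 0.14 to 0.18. The difference between DMSO+AB and DMSO+Sham was 0.00, with a 95% interval of -0.61 to 0.62 (limma adjusted p = 0.994). Within the animal series it was 0.91 for 2 mice against 1 and -0.74 for 1 against 1, of opposite sign, and the single DMSO+Sham mouse of the first was DMSO+Sham 3. Ppargc1b ranged from 1.99 to 7.74 FPKM, the widest relative span of the set at 3.89-fold. It lay between 3.23 and 4.00 FPKM in all 6 AB hearts, a log2 difference of -0.29 in the average over drugs (-0.71 to 0.13, limma adjusted p = 0.416).

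Among the remaining members, Esrra differed by -0.06 and Esrrg by -0.15 between DMSO+AB and DMSO+Sham, Nrf1 by -0.17 and Tfam by -0.03 on the log2 scale, with limma adjusted p from 0.558 to 0.923. In the average over drugs the differences were -0.15 for Esrra, -0.14 for Esrrg, -0.04 for Nrf1, -0.15 for Tfam, -0.04 for Sirt3 and -0.16 for Ppargc1a, none called. All 10 members were on the lower side in AB hearts in that average, with a median of -0.16, beside -0.03 and 55.8% lower over all 11664 genes. Without the 3 libraries with atrial transcripts 8 of 10 were lower, with a median of -0.14, and without DMSO+Sham 3 it was 9 of 10, with a median of -0.21. Within the animal series of 6 mice, whose single DMSO+Sham heart is DMSO+Sham 3, only 5 of 10 were lower and Sirt3 (0.14), Ppargc1a (0.36), Ppargc1b (0.23), Esrra (0.10) and Tfam (0.02) were on the higher side, while within the series of 5 mice 9 of 10 were lower. The 10 genes share their libraries and do not count as independent. In the hispidulin arm alone, the hearts after AB lay below the Sham hearts without overlap for Ppargc1a (-0.32), Ppara (-0.34), Tfam (-0.27) and Rxra (-0.20), as did 11.8% of all genes tested, but 0% of genes passed the test in that comparison and the limma adjusted p of these members were 0.733 to 0.892. Nrf1 went the other way, at 4.94, 4.29 and 4.83 FPKM in Hispidulin+Sham and 5.07, 5.19 and 4.95 FPKM in Hispidulin+AB hearts, a difference of 0.10 (adjusted p = 0.948), and 9.14% of all genes were higher without overlap. Over all genes, 847 had an unadjusted p under 0.05 there, and with the replicate number as a block 17 genes were called, none a member.

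Markers of other cells moved in the same comparison. Of 6 fibroblast genes, 3 were called higher in DMSO+AB against DMSO+Sham and 4 in the average over drugs (limma), with a summed level of 377 to 930 FPKM in DMSO+AB hearts against 326 to 413 FPKM in DMSO+Sham hearts. With hispidulin the sums were 376 to 606 FPKM after banding and 324 to 445 FPKM after Sham surgery. These sums overlapped between AB and Sham hearts in both drug arms, but they are mostly Dcn (261 to 470 FPKM); Postn did not overlap in either arm, at 23.44 to 183.62 against 3.82 to 10.48 FPKM with DMSO and 16.82 to 50.85 against 6.98 to 12.83 FPKM with hispidulin. Of 6 cardiomyocyte genes, 1 was called lower and none higher in both comparisons, and of 4 smooth muscle and pericyte genes 1 was called higher in the average. The part of these shifts in the levels of Rxra and the other members was not tested.

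The second question was whether hispidulin changed the regulators in banded hearts. No member passed the test, and 0% of the 11664 genes did (limma; 362 genes had an unadjusted p under 0.05, none of them a member). Without DMSO+AB 1, the heart with the least Nppa of its group, 20 genes were called, again none of them a member, and the Ppargc1a difference changed sign to 0.30 (adjusted p = 0.699). Sirt1 read 4.42, 4.55 and 5.14 FPKM in Hispidulin+AB hearts against 5.47, 4.36 and 2.99 FPKM in DMSO+AB hearts, so the treated hearts fell inside the range of the untreated ones. The means were 4.70 ± 0.38 and 4.27 ± 1.24 FPKM (SD, n = 3), a log2 difference of 0.14 with a 95% interval of -0.26 to 0.54 (limma adjusted p = 0.996). The exact permutation p for 3 against 3 was 0.7. The averaged drug comparison, with 6 hearts a side, gave 0.07 for Sirt1 (-0.22 to 0.35, adjusted p = 0.999). Within the animal series the Sirt1 difference in banded hearts was -0.10 for 2 mice against 2 and 0.62 for 1 against 1. The interaction of drug and surgery for Sirt1 was 0.14 (-0.43 to 0.71).

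Ppargc1a differed by -0.01 between Hispidulin+AB and DMSO+AB (-0.63 to 0.61), by 0.32 between the Sham groups (-0.30 to 0.94) and by 0.16 in the averaged drug comparison (-0.28 to 0.59), none called by limma. Ppargc1b differed by 0.10 in banded hearts (-0.49 to 0.69), by 0.35 in Sham hearts (-0.24 to 0.95) and by 0.23 in the average (-0.19 to 0.65). In banded hearts the other differences were -0.04 for Sirt3, 0.04 for Ppara, -0.08 for Esrra, 0.01 for Esrrg, 0.18 for Nrf1, -0.10 for Tfam and 0.09 for Rxra, 6 higher and 4 lower in all, with a median of 0.02 beside 0.00 for all genes. The groups overlapped for all 10 members, while 7.88% of all genes had groups that did not overlap. These are differences in RNA, and protein level, acetylation and enzyme activity were not measured in these libraries. In Sham hearts 0% of genes passed (287 at an unadjusted p under 0.05), as in the averaged drug comparison (347) and the interaction (289). For Rxra the interaction was 0.35 (-0.02 to 0.71, unadjusted p = 0.0591, limma adjusted p = 1.000).

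**Figure D3:**
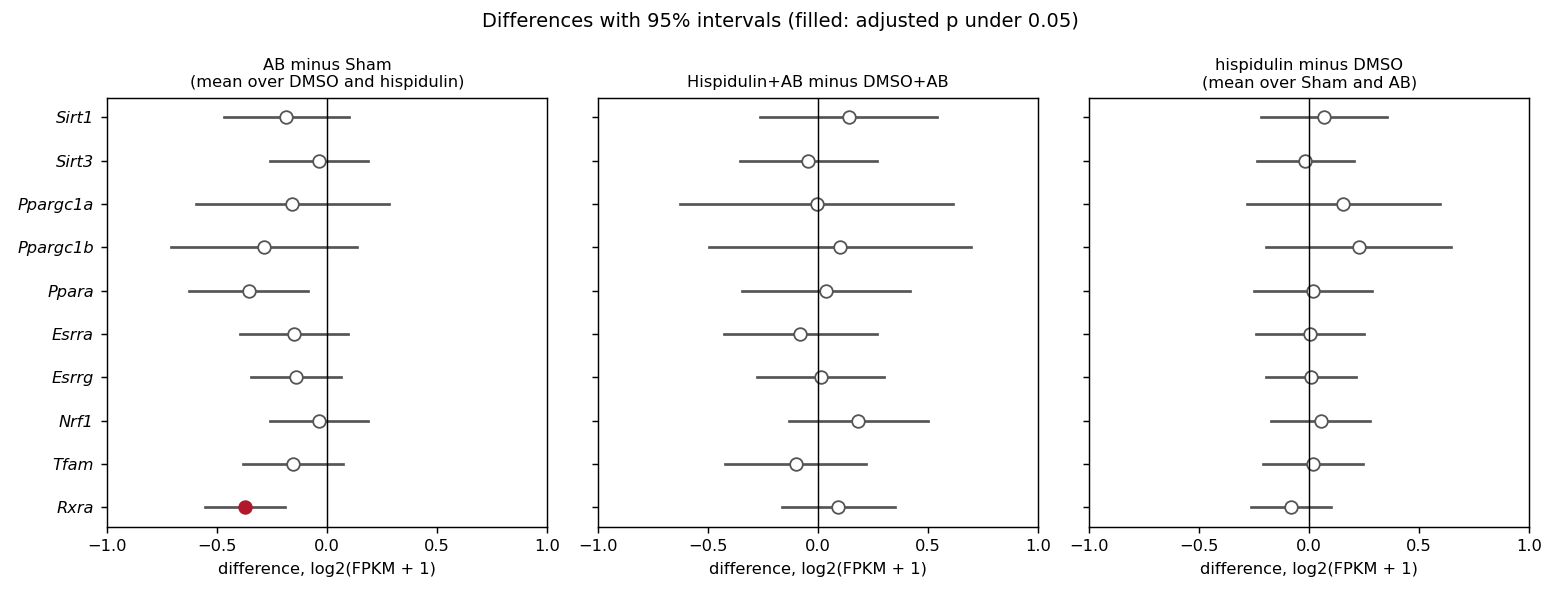
Difference of each regulator in log2(FPKM + 1) with its 95% interval for AB against Sham averaged over drugs, Hispidulin+AB against DMSO+AB, and hispidulin against DMSO averaged over surgery. In the first panel all 10 points lie below 0 and Rxra alone is filled (-0.37, adjusted p under 0.05); in the drug panels every interval holds 0.

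The genes around the regulators were read from lists chosen by role. Of 101 such genes tested outside the set, 2 were called higher and 15 lower in DMSO+AB against DMSO+Sham, with a median of -0.18, and 2 higher and 19 lower in the average over drugs, with a median of -0.15. The list counts below are read beside the 5.21% of all genes called and 2.71% called lower in the first comparison, and the 7.39% and 3.87% in the average. None was called in a drug comparison, where their median was 0.06 in banded hearts.

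NAD supply, on which the sirtuins depend, held the largest called rise on these lists and a large fall. Nampt, the rate-limiting enzyme of NAD salvage from nicotinamide, read 79.36, 65.10 and 97.40 FPKM in DMSO+Sham hearts and 42.24, 35.61 and 21.16 FPKM in DMSO+AB hearts. The log2 difference was -1.30 (SE 0.21, limma adjusted p = 0.0106). Nmrk2, a muscle kinase that phosphorylates nicotinamide riboside on the way to NAD, went from 2.19, 7.06 and 2.68 FPKM to 17.87, 68.08 and 36.30 FPKM. The difference was 3.00 (SE 0.43, limma adjusted p = 0.00541). Nnmt, which methylates nicotinamide, rose by 0.79 (limma adjusted p = 0.0199), a call kept in 10 of 16 alternatives. The 11 NAD genes had 3 calls in this comparison, none of them left without the 3 atrial-transcript libraries, where Nampt kept -1.38 (adjusted p = 0.0922) and Nmrk2 2.54 (adjusted p = 0.0542). In the average over drugs Nampt was called lower, with a difference of -0.85 (adjusted p = 0.00846) and Nmrk2 higher, with 2.26 (adjusted p = 0.00259). The call was kept in 21 of 22 alternatives for Nampt, lost only without the atrial-transcript libraries, and in 22 of 22 for Nmrk2. Nnmt was called higher there too, and Nmnat3 and Parp1 lower.

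In Hispidulin+AB hearts Nampt was 45.71, 48.81 and 45.82 FPKM, above all 3 DMSO+AB hearts and below all 6 Sham hearts, whose lowest value was 55.05 FPKM. The difference from DMSO+AB was 0.54 (unadjusted p = 0.0261) and did not pass after adjustment over all genes (limma adjusted p = 0.996). Without DMSO+AB 3 it was 0.26 and without DMSO+AB 1 it was 0.75. Nmrk2 was 16.56, 13.46 and 22.51 FPKM, overlapping DMSO+AB, with a difference of -1.01 (adjusted p = 0.996) that became -0.55 without DMSO+AB 2 and -1.48 without DMSO+AB 1. Both drug differences share the DMSO+AB hearts with the banding comparison, so a low or high value there moves the 2 comparisons in opposite directions.

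Upstream of the coactivators, 2 of 10 tested inducers of PGC-1 transcription were called lower and none higher in DMSO+AB against DMSO+Sham (limma): Klf15, a cardiac factor that raises lipid metabolism genes, fell by 0.72 and Foxo3, a stress-responsive forkhead factor, fell by 0.66 on the log2 scale. Camk4 was not tested, at 0.06 to 0.21 FPKM. The call of Klf15 was kept in 10 of 17 alternatives and that of Foxo3 in only 4, and neither remained without the atrial-transcript libraries or without DMSO+Sham 3. None of 14 PGC-1 modifiers and corepressors was called. Among 11 nuclear receptor partners all 11 had a difference below 0 and only Rxra was called; Esrrb differed by -0.37 (adjusted p = 0.209) and the paralogues Rxrb and Rxrg were not called, nor were Ppard, Pparg and Pprc1. Gabpa, the DNA-binding subunit of NRF2, differed by -0.33 (limma adjusted p = 0.257). It read 11.65, 11.48 and 12.16 FPKM in DMSO+Sham and 11.24, 10.34 and 6.48 FPKM in DMSO+AB hearts. Leaving out each library in turn gave -0.47 to -0.12. Of 15 genes for mitochondrial DNA transcription and maintenance 1 was called, the nuclease Mgme1, which fell by 0.48, a call kept in 6 of 17 alternatives, while Tfam itself differed by -0.03.

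Downstream of the receptors, of 19 PPAR alpha targets tested, 8 were called lower and none higher in DMSO+AB against DMSO+Sham, and 17 of 19 had a difference below 0, with a median of -0.50 beside -0.03 for all genes (limma). The largest was Acot1, a cytosolic acyl-CoA thioesterase, which read 31.87, 8.49 and 40.73 FPKM in DMSO+Sham and 6.63, 2.58 and 3.33 FPKM in DMSO+AB hearts (difference -2.26, SE 0.50, adjusted p = 0.0267). Acot2, its mitochondrial relative, fell by 0.71; Acot1 and Acot2 are near-identical copies, and short reads may be split between them. Mlycd, which degrades malonyl-CoA, fell by 0.68, Hadha of the trifunctional protein by 0.56 and Acadm, the medium-chain dehydrogenase, by 0.56. These calls were kept in 5 (Acadm) to 11 (Hadha) of 17 alternatives. Without DMSO+Sham 3 there were 4 calls, and there was none without the atrial-transcript libraries or with the animal series as a covariate, where the medians were -0.38 and -0.38. In Hispidulin+AB against DMSO+AB, which shares the DMSO+AB hearts, none was called. There 18 of 19 had a difference above 0 with a median of 0.24, while 48.6% of all genes were below 0. Acot1 differed by 1.42 (limma unadjusted p = 0.0145, adjusted p = 0.996). Markers also shifted there, none called: 5 of 6 cardiomyocyte genes were above 0 (median 0.16). Below 0 were 5 of 6 fibroblast genes (median -0.61) and 4 of 4 overload genes (median -0.60). The part of these shifts in the target levels was not tested.

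Of 16 targets of the estrogen-related receptors and NRF1, which encode respiratory chain and citric acid cycle proteins, 3 were called lower in DMSO+AB against DMSO+Sham (limma). Sdha, the catalytic subunit of complex II, went from 699.66, 643.99 and 659.79 FPKM to 526.66, 406.40 and 346.74 FPKM, a difference of -0.67 (adjusted p = 0.0147). Its 3 Hispidulin+AB values of 525.56, 523.33 and 526.63 FPKM lay inside the range of the DMSO+AB hearts, and the difference between these groups was 0.32 (95% interval 0.05 to 0.59) and not called (adjusted p = 0.996). Cox7a1, the heart and muscle form of a complex IV subunit, fell by 0.49 and Atp5b, the catalytic subunit of ATP synthase, fell by 0.33. The median of the 16 was -0.16, close to the -0.15 of the 10 regulators and above the -0.50 of the PPAR alpha targets. These calls were kept in 12 (Sdha), 9 (Cox7a1) and 6 (Atp5b) of 17 alternatives. None was called without the atrial-transcript libraries, where all 16 were below 0.

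**Figure D4:**
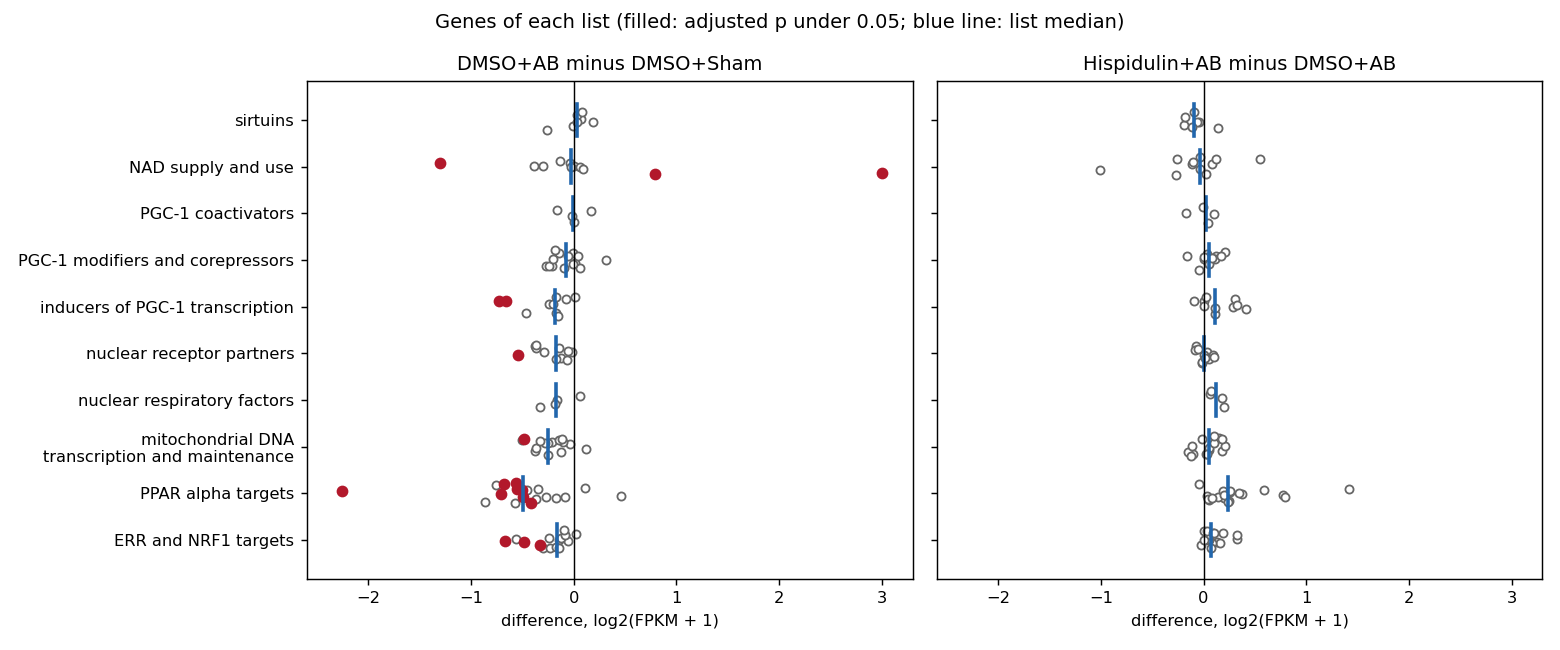
Difference in log2(FPKM + 1) of every tested gene on the 10 lists around the regulators, for DMSO+AB against DMSO+Sham and Hispidulin+AB against DMSO+AB; filled points have an adjusted p under 0.05 and blue lines are list medians. In the first panel the filled points run from Acot1 at -2.26 to Nmrk2 at 3.00, with 8 among the PPAR alpha targets, and in the second panel no point is filled.

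Within groups, Ppargc1a varied from heart to heart together with the mean of the listed estrogen-related receptor and NRF1 targets. After each group's mean was subtracted, Ppargc1a and the mean of the 16 estrogen-related receptor and NRF1 targets correlated with Pearson r = 0.90 over 12 hearts (exact permutation within groups, two-sided, p = 0.00463; Benjamini-Hochberg over 4 relations, adjusted p = 0.0185) and Spearman rho = 0.91 (permutation p = 0.00463). Without DMSO+AB 3 and DMSO+Sham 3, the hearts farthest from the median of Ppargc1a, r was 0.82. Without subtraction r was 0.61 (permutation p = 0.0351, adjusted p = 0.0702; rho 0.64, permutation p = 0.028), in the animal series of 6 mice it was 0.16, and over the 5 mice of the other series 0.95, both without subtraction of group means; the relation within groups was not computed inside a series. With quantile normalization the relation within groups was 0.81 and no longer past the threshold (exact permutation p = 0.0656, unadjusted). The target mean moved by little, from -0.11 to 0.10 around the group means on the log2 scale. Ppargc1a moved from -0.65 to 0.62 in the DMSO hearts but only from -0.09 to 0.11 in the hispidulin hearts. The share of all genes that correlate as well with Ppargc1a within groups was not computed.

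Ppargc1a and Esrrg, its receptor partner, had r = 0.80 within groups (exact permutation p = 0.0478, adjusted p = 0.0957, rho 0.68) and 0.75 over all hearts, and r was 0.54 within groups without the same 2 hearts. Over the animal series of 6 and of 5 mice it was 0.71 and 0.81, without subtraction. Sirt1 and Ppargc1a were not detectably related (r = 0.30, rho -0.02, exact permutation p = 0.532, adjusted p = 0.709; r = 0.01 without DMSO+AB 3 and Hispidulin+Sham 3), nor were Ppara and the mean of its 19 targets (r = -0.16, rho -0.28, exact permutation p = 0.816). For Ppara the absence of a relation rested on a pair of hearts: without DMSO+Sham 2 and Hispidulin+Sham 2, the farthest from the median of Ppara, r was 0.70. All 4 relations use values of the same libraries, and the part of library differences such as that of DMSO+Sham 3 in them was not tested.

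**Figure D5:**
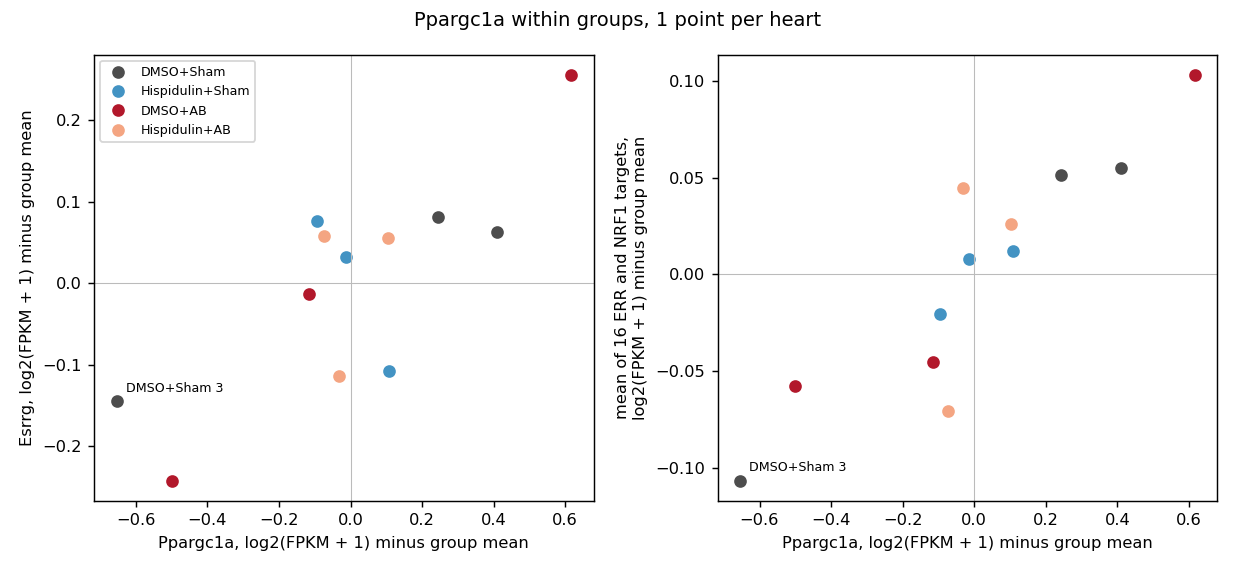
Ppargc1a against Esrrg and against the mean of 16 estrogen-related receptor and NRF1 targets, in log2(FPKM + 1) minus the mean of the heart's group, with 1 point for each of 12 hearts. The points rise together (r = 0.80 and 0.90), with DMSO+Sham 3 lowest for Ppargc1a at -0.65.

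Over all 12 hearts and all genes tested, the transcripts most like Sirt1 in pattern were Tex10 (r = 0.96), Trim33 (0.95), Otud4 (0.95), Akap10 (0.94) and Fam135a (0.94), with mean levels of 2.60 to 10.6 FPKM. Of the members, Esrrg was nearest to Sirt1 (r = 0.75, rank 768), whereas Sirt3 and Esrra ran the other way (r = -0.41 and -0.43). The transcripts most like Ppargc1a were Tmem150c (r = 0.90), Nckap5 (0.89), Dpysl4 (0.87) and Ppp2r3a (0.87), and Esrrg ranked 66th at 0.75. Their mean levels were 3.31 FPKM for Tmem150c, 1.06 for Nckap5, 2.48 for Dpysl4 and 71.1 for Ppp2r3a. Nckap5 thus lay near the filter, with a lowest value of 0.17 FPKM. These coefficients describe likeness across the same 12 libraries and were not tested.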

How the data were processed

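The authors deposited 1 table of FPKM values, rounded to 0.01, for 18079 genes in 12 libraries from single-end 50-base BGISEQ-500 reads of poly(A) RNA; the submitters' processing notes list HISAT2 2.0.4, Bowtie2 2.2.5, RSEM 1.2.12 and DESeq2 1.4.5 without roles. The genome build and annotation are not given in the sources used here. Gene IDs were paired with symbols from a RefSeq gene table (17947 matched). The 11664 genes with FPKM of at least 1 in at least 3 libraries were tested as log2(FPKM + 1), with 1 mean per group in 1 model of all 12 libraries (limma 3.58.1, empirical Bayes with trend, 8 residual degrees of freedom, two-sided), and p-values were adjusted by Benjamini-Hochberg over all genes in each of 7 comparisons. Adding 1 understates fold changes of low genes, and counts, hence sequencing depth, cannot be recovered: the ratios of low values fell no more often near whole numbers (16.3% within 0.1) than evenly spread ratios would (20%). Exact permutation tests were enumerated in Python 3.11.15 with SciPy 1.17.1. Scripts were tested on simulated data. Genes named from the lists were the listed paralogues and, per list and comparison, up to 5 called genes with the largest change; Camk4 and the genes of the library checks were named after their values were seen. The 5 genes most like Sirt1 and like Ppargc1a were to be named, and 1 of those for Ppargc1a is not reported here. The members and lists were chosen with earlier results of these data known. The numbers 1 to 3 pair no samples by design; deviations of same-numbered libraries correlated at 0.13 to 0.33 between the Sham groups and at 0.15 to 0.23 between the hispidulin groups, above 0.1 in every pair, so a fit with the replicate number as a block was read beside those comparisons. Libraries are from separate mice, and no library pair was identical. Alternatives covered the added value, filters, scalings, weights, the animal series, the block and leaving out libraries.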

Additional observations from a re-analysis of the deposited data

How the results depend on the processing

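Of 1435 recomputed log2 differences, for 76 differences of the named genes, 1196 stayed on the same side of the threshold in the same direction, 182 lost their call, 4 gained one and 53 changed sign; only differences without a call changed sign. The setting without the 3 atrial-transcript libraries was chosen after seeing the data. With 3 hearts per group an unadjusted interval of the least variable member spanned 0.26 log2 units to each side and that of Ppargc1a 0.62. Calls were made on p-values adjusted over all genes tested, which is stricter than these intervals. Drug differences smaller than these widths were therefore not detectable, and larger ones could be missed as well.

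In DMSO+AB against DMSO+Sham 608 genes were called; there were 383 without a filter, 1423 with array weights, 142 with the animal series as a covariate, 11 with only the libraries compared, 20 without the atrial-transcript libraries and 91 to 1053 when each library was left out (91, 97 and 191 without DMSO+Sham 1, DMSO+AB 2 and DMSO+AB 3, and 1053 and 954 without DMSO+Sham 2 and DMSO+AB 1). Members called were 2 with array weights, 0 with the animal series, with only the libraries compared and without the atrial-transcript libraries, and 0 to 2 when each library was left out. The average over drugs called 862 genes, 2535 with array weights, 547 with the animal series, 74 without the atrial-transcript libraries and 376 to 1220 leaving out each library (376 to 571 without DMSO+Sham 1, DMSO+AB 2, Hispidulin+Sham 1, Hispidulin+Sham 2 or any Hispidulin+AB heart); its members called were 2, 0 and 0 under the first 3 of these and 0 to 2. Where nothing was called, Hispidulin+AB against DMSO+AB gave 2 genes without a filter and 0 to 20 leaving out a library (20 without DMSO+AB 1), hispidulin against DMSO 0 to 2, the interaction 0 to 3, and Hispidulin+AB against Hispidulin+Sham 2 without a filter, 2 with median-of-ratios scaling, 3 with quantile normalization, 209 with array weights, 49 with only the libraries compared and 0 to 3 leaving out a library.

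The replicate block gave 17 genes in Hispidulin+AB against Hispidulin+Sham and changed no call of a member; it called 640 genes in DMSO+AB against DMSO+Sham and 866 in the average over drugs, and ended the calls of Foxo3 (adjusted p = 0.0718) and Mlycd (0.0636, limma). Same-numbered libraries correlated at -0.20 to -0.02 between the DMSO groups and at -0.18 to 0.30 between the AB groups, so the numbers were not read as pairs there.

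Signs changed as follows, in log2 units. In DMSO+AB against DMSO+Sham Sirt3 became 0.016 with median-of-ratios scaling, 0.098 with the animal series and 0.043 without the atrial-transcript libraries, Ppargc1a -0.26 and Tfam 0.091 with array weights, and Ppargc1b 0.13 and Esrra 0.083 with the animal series. In Hispidulin+AB against DMSO+AB Sirt3 became 0.0022 and Esrrg -0.037 with array weights, Ppargc1a 0.016 with quantile normalization, and Ppara -0.068, Esrrg -0.023, Tfam 0.057 and Rxra -0.0057 without the atrial-transcript libraries. In the average over drugs Sirt3 became 0.039 with the animal series and 0.017 without those libraries, and Nrf1 0.027 without them. In hispidulin against DMSO Sirt1 became -0.0093 with array weights and -0.029 without those libraries, and Ppargc1a -0.0022 with array weights.

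In DMSO+AB against DMSO+Sham, leaving out each library in turn gave -0.42 to -0.07 for Sirt1 and -0.18 to 0.077 for Sirt3. It gave -0.32 to 0.25 for Ppargc1a, -0.51 to 0.061 for Ppargc1b, -0.21 to 0.052 for Esrra and -0.16 to 0.125 for Tfam. For Esrrg it gave -0.27 to -0.024 and for Nrf1 -0.30 to -0.036. In Hispidulin+AB against DMSO+AB it gave -0.048 to 0.30 for Sirt1, -0.12 to 0.044 for Sirt3, -0.26 to 0.30 for Ppargc1a, -0.070 to 0.11 for Ppara, -0.15 to 0.020 for Esrra, -0.11 to 0.14 for Esrrg and -0.26 to 0.023 for Tfam. Between the Sham groups it gave -0.0085 to 0.52 for Ppargc1a and -0.0031 to 0.57 for Ppargc1b. In the average over drugs it gave -0.12 to 0.0067 for Sirt3 and -0.10 to 0.030 for Nrf1. That average gave -0.32 to -0.033 for Ppargc1a, -0.46 to -0.16 for Ppargc1b and -0.22 to -0.074 for Tfam. For Esrra it was -0.22 to -0.082, for Esrrg -0.20 to -0.080 and for Sirt1 -0.27 to -0.091. In hispidulin against DMSO the ranges were -0.026 to 0.15 for Sirt1 and -0.0076 to 0.31 for Ppargc1a. For the interaction they were -0.044 to 0.31 for Sirt1 and -0.58 to 0.0017 for Ppargc1a.

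Correlations within groups ranged, leaving out each heart, from -0.12 to 0.58 for Sirt1 with Ppargc1a and 0.63 to 0.88 for Ppargc1a with Esrrg. For Ppara with its targets the range was -0.53 to 0.42. That relation was 0.038 with median-of-ratios scaling and 0.0064 with quantile normalization. Ppargc1a with the mean of the 16 listed targets ranged from 0.83 to 0.96. With quantile normalization it was 0.81, no longer past the threshold (exact permutation p = 0.0656, unadjusted). The cause was not tested for these changes.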
